A study of Homo sapiens with 28 samples.

Results

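Collagen genes were taken as every gene symbol in the count tables that consists of COL, a number, A and a number. This rule gave 44 of 26346 symbols, and 26 of the 44 had enough reads to be among the 14220 genes tested. The libraries measured messenger RNA of AN3CA, a human endometrial carcinoma cell line, which expressed 1 of 12 constructs or an empty vector and was not otherwise treated. The 7 ARID1A constructs were the wild-type (WT), the CBR truncation, the delIDR1 truncation, DBDmut (mutant in the ARID domain), a DDX4 hybrid, which carries the intrinsically disordered region (IDR) of that protein, the AQG scramble (AQGscram), and a mutant written 42YS in one label and Y42S in another. The 5 ARID1B constructs were the WT, M2 (S320_G327del), A457_G461del, Block13del and Block9del. Each construct had 2 libraries and the empty vector, which serves as the control of every construct, had 4, giving 28 libraries in 13 groups. The labels do not say which vector or promoter was used or whether libraries came from separate cultures or clones, so the p-values speak for the scatter among the libraries at hand, some or all of which may be technical. ARID1A and ARID1B are alternative subunits of the BAF chromatin remodelling complex, and the comparisons ask how RNA levels differ with each construct.

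Collagens are matrix and membrane proteins whose chains wind around each other into a helical rod. Fibrillar collagens assemble into the banded fibrils of connective tissue, collagens of the FACIT class decorate the surface of these fibrils, type IV collagen forms the sheet-like network of basement membranes, and type VI collagen forms beaded filaments around cells. In the endometrium, stromal cells are the chief source of fibrillar collagen, while the epithelium rests on a basement membrane. Chains are hydroxylated and folded in the endoplasmic reticulum, exported in large carriers, trimmed outside the cell and crosslinked.

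Promoter sequences are shown for a pair of genes with large changes, COL16A1 and COL12A1. Of type IV genes that lie head to head and share a promoter region, both COL4A5 and COL4A6 are shown, but COL4A2 without its neighbour COL4A1. All are RefSeq sequences of build GRCh38.p14 and cover the 250 bases before a start of each gene, 5′ to 3′ on the strand of the gene. COL16A1 is at chr1:31704018-31704267 on the minus strand and COL12A1 at chr6:75206054-75206303 on the minus strand. COL4A5 is at chrX:108439588-108439837 on the plus strand, and its neighbour COL4A6 at chrX:108439459-108439708 on the minus strand. Another RefSeq promoter of COL4A6, at chrX:108438423-108438672 on the minus strand, is not shown. That window held a GC box and no CCAAT box. COL4A2 is at chr13:110307034-110307283 on the plus strand, within reach of the start of COL4A1 on the minus strand, whose window is chr13:110307158-110307407. Capitals mark matches to the motifs searched, on either strand.
COL16A1: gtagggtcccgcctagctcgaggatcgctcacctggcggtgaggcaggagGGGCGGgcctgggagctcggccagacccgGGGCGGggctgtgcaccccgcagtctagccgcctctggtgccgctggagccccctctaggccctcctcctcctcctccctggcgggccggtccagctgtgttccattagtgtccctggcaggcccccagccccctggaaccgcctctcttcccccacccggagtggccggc
COL12A1: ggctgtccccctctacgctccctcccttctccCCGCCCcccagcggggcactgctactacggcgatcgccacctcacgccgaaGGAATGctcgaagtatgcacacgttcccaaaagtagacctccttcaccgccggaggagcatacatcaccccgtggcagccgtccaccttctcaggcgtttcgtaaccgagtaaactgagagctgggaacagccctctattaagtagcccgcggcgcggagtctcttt
COL4A5: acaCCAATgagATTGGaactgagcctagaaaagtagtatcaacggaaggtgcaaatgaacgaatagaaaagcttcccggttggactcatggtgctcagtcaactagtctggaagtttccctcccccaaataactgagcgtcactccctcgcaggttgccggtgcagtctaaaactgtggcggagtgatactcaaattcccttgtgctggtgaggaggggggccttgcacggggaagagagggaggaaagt
COL4A6: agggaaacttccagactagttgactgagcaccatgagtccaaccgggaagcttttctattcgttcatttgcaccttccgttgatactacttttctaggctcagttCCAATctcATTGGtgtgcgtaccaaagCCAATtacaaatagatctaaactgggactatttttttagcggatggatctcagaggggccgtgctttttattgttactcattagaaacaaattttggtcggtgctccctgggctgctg
COL4A2: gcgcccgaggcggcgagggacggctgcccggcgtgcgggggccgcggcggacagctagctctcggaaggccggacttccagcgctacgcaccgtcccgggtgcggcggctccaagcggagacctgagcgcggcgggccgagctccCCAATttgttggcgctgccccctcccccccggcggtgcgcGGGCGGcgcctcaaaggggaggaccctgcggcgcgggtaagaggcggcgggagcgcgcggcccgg
The motifs were the TATA box (TATAAA), the CCAAT box (CCAAT), the GC box (GGGCGG), and the AP-1 (TGANTCA), TEAD (GGAATG) and RUNX (TGTGGT) elements. Matches of different motifs could share bases and were counted separately. COL16A1 held GC boxes only, COL12A1 a GC box and a TEAD element, and both CCAAT boxes of COL4A5 lay in the stretch it shares with COL4A6. Over the 25 RefSeq promoters of the 19 tested collagen genes with an entry, 68% held a GC box, against 42.6% of all 35116 promoters of this length. A TATA box was found in 20% against 10.7%, a CCAAT box in 24% against 32%, a TEAD element in 8% against 11.9%, a RUNX element in 4% against 11% and an AP-1 element in 0% against 6.57%. These shares are descriptions of the letters in the windows. COL14A1, COL6A5, COL6A1, COL8A1, COL22A1, COL1A1, COL20A1, COL9A3, COL2A1, COL1A2, COL5A2 and COL3A1 were not matched.

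Between 16.57 and 27.87 M reads per library fell on genes, with a median of 22.04 M, and levels are given as CPM (reads per M reads on genes, scaled with normalization factors). The libraries fell into 3 sets by the share of stranded gene reads on the opposite strand. Set 1, with 84.54 to 87.75%, held replicates 1 and 2 of the empty vector together with ARID1A WT and its CBR, delIDR1 and DBDmut forms. Set 2, with 98.13 to 98.6%, held replicates 3 and 4 of the empty vector together with ARID1B WT, M2 and the hybrid. Set 3, with 96.74 to 97.85%, held the other 5 constructs and no empty vector library, so for these the construct and the set cannot be told apart. The empty vector pairs differed from each other, with 58.5% of all genes tested called between them, and constructs of sets 1 and 2 are therefore also compared with the pair that shares their set, called their own pair. Within construct pairs the counts differed by a chi-square per gene of 1.18 to 4.97, except for the libraries labelled AQGscram, which reached 30.4. ARID1A RNA averaged 733 CPM in ARID1A WT, 374 to 1020 CPM in CBR, DBDmut, delIDR1, the DDX4 hybrid and 42YS, and 247 CPM in the libraries labelled AQGscram, against 288 CPM in the empty vector, so this gene does not check the AQGscram label. ARID1B RNA averaged 4250 CPM in M2, 3600 CPM in ARID1B WT, 2240 CPM in A457_G461del, 883 CPM in Block13del and 344 CPM in Block9del, against 98 CPM in the empty vector. The constructs thus differed in their own RNA, and the part of that in the collagen results was not tested.

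Collagen RNA was higher with both wild-type proteins, across several classes of collagen. Of the 26 collagen genes tested, 22 were called higher in ARID1A WT than in the empty vector at a Benjamini-Hochberg adjusted p under 0.05 (edgeR quasi-likelihood test), where 44.5% of all genes tested were called, 21.1% of them higher and 23.5% lower. The other 4, COL6A1, COL6A2, COL6A3 and COL27A1, were not called. In ARID1B WT 16 of the 26 were called higher and COL27A1 lower, where 19.2% of all genes were called higher and 23.9% lower, or 43.1%. The median log2 fold change of the 26 was 1.84 in ARID1A WT and 1.44 in ARID1B WT, beside -0.06 and -0.07 over all genes tested. A gene that passes the read filter because of the groups in which it is high has to differ between groups, and 8 of the 26 averaged under 1 CPM in every group, so these counts describe the genes tested and not the family. In bulk RNA, fewer cells with a transcript and less RNA per cell cannot be told apart.

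The mutants differed in how many collagen genes were called, and since all 12 constructs share the same 4 empty vector libraries, their counts are given side by side only. Among ARID1A mutants, CBR had 15 called higher and 1 lower, where 25.2% of all genes were called higher and 27.8% lower, or 53.1%. delIDR1 had 18 higher and 1 lower, where 22.4% and 27.7% of all genes were, or 50.1%. In DBDmut 16 were higher and the other 10 not called, where 16.9% and 18.3% of all genes were called higher and lower, or 35.1%. The DDX4 hybrid had 14 higher and 1 lower, where 19.7% and 19.8% were, or 39.5%. The libraries labelled AQGscram had 12 higher and 2 lower, where 10.9% and 13.7% were, or 24.7%, and 42YS had 4 higher and 3 lower, where 15.8% and 18% were, or 33.8%. Among ARID1B mutants, M2 had 16 higher and 2 lower, where 22.1% and 25.1% of all genes were, or 47.3%. A457_G461del had 13 higher and 1 lower, where 19.1% and 19.9% were, or 39%. Block13del had 10 higher and 2 lower, where 19.1% and 20.2% were, or 39.3%, and Block9del 3 higher and 5 lower, where 17.8% and 21.2% were, or 39%. Medians of the 26 were 1.16 in CBR, 0.97 in delIDR1, 1.38 in DBDmut, 0.84 in the DDX4 hybrid, 0.78 in the libraries labelled AQGscram and 0.11 in 42YS. Among ARID1B mutants the medians were 0.84 in M2, 0.84 in A457_G461del, 0.30 in Block13del and -0.05 in Block9del. With empty vector replicates 1 and 2 as the only control 42YS had 5 higher and 6 lower, where 61% of all genes were called, and with replicates 3 and 4 it had 8 higher and 3 lower, where 45% were. Block9del had 4 higher and 8 lower against the first pair, where 63.8% of all genes were called, and 5 higher and 3 lower against the second, where 42.6% were. Without Block9del replicate 1 fewer of the 26 were called, and the share of all genes called in that fit is not given here.

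**Figure D1:**
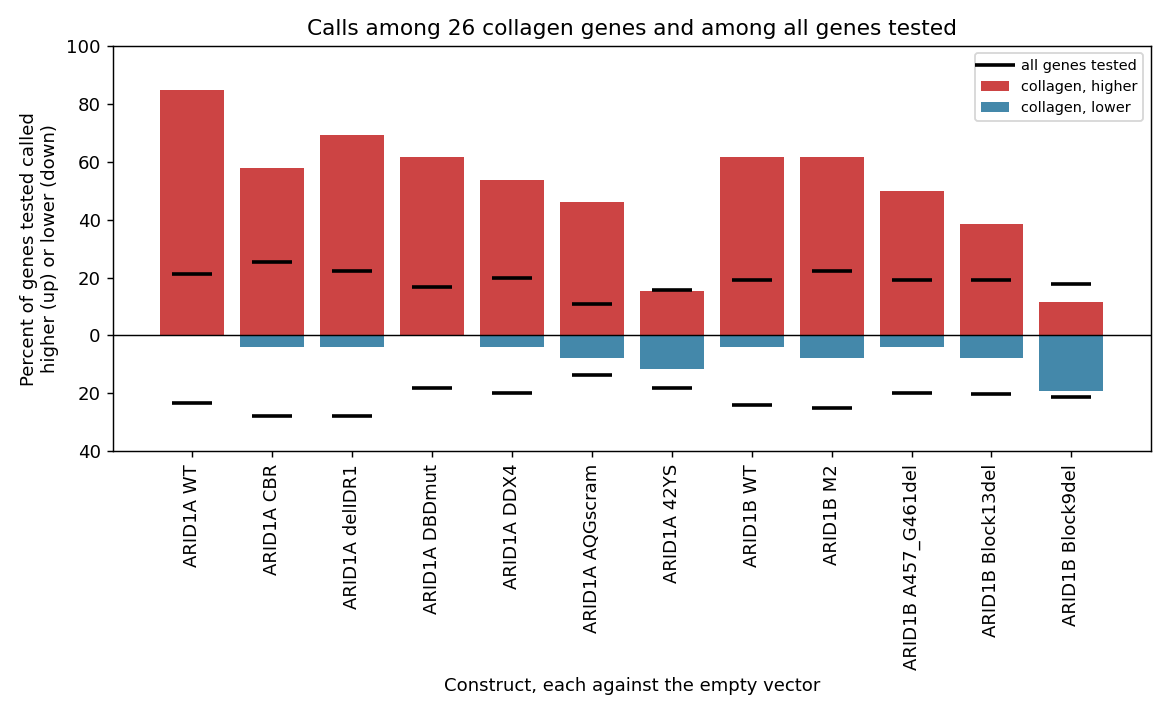
Bars give the percent of the 26 tested collagen genes called higher (up) or lower (down, drawn below 0) than the empty vector in each construct, and black ticks the same percent over all 14220 genes tested. In ARID1A WT 84.6% of the collagen genes were called higher, against 21.1% of all genes.

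Against its own pair, ARID1A WT had 21 collagen genes higher and 3 lower (COL6A2, COL6A3 and COL27A1), where 29.9% of all genes were called higher and 30.8% lower, or 60.7%. ARID1B WT had 21 higher and COL27A1 lower, where 23.6% and 28.5% of all genes were, or 52%. CBR had 16 higher and 2 lower, where 28.7% and 30.8% of all genes were, or 59.6%. delIDR1 had 18 higher and 3 lower, where 25.2% and 31.1% were, or 56.3%, and DBDmut 17 higher and 4 lower, where 30% and 29.1% were, or 59%. The DDX4 hybrid had 19 higher and 7 not called, where 26.1% and 24.4% of all genes were called higher and lower, or 50.5%, and M2 had 19 higher and 2 lower, where 25.4% and 27.7% were, or 53.1%. Between the empty vector pairs themselves, replicates 3 and 4 had 4 of the 26 higher and 9 lower than replicates 1 and 2, where 28.8% and 29.7% of all genes were. The genes lower in that comparison were COL5A2, COL6A3, COL1A2, COL15A1, COL27A1, COL4A6, COL18A1, COL6A1 and COL6A2, and for these the choice of pair bears on every small difference.

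**Figure D2:**
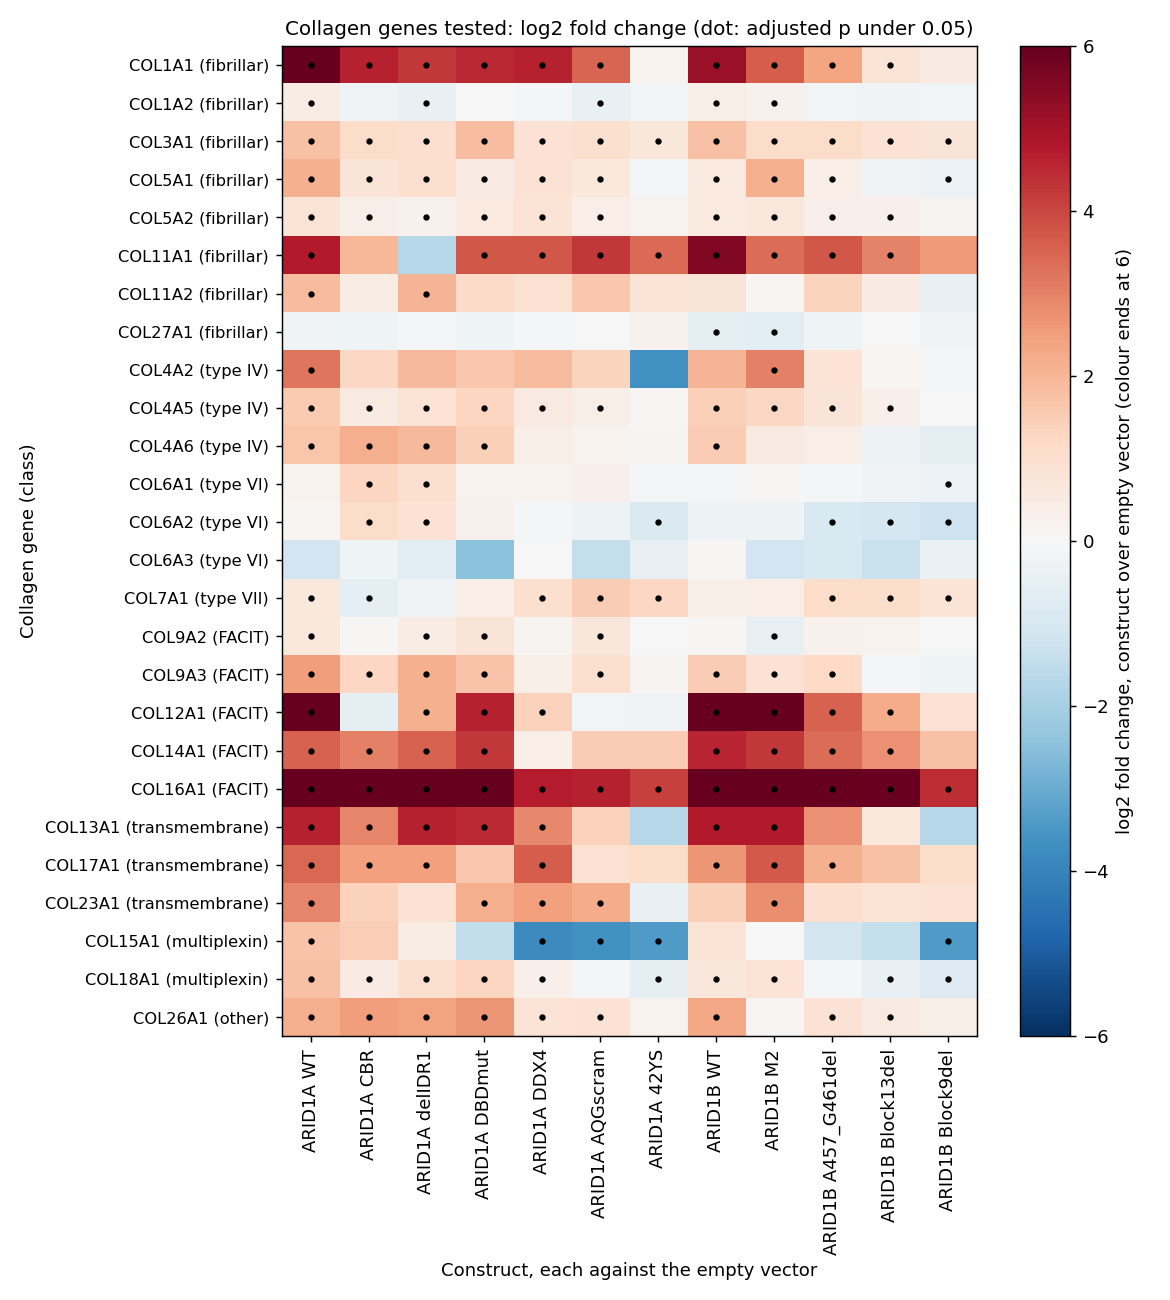
Colour gives the log2 fold change of each tested collagen gene (rows, with class) in each construct (columns) over the 4 empty vector libraries, with the colour scale ending at 6, and a dot marks an adjusted p under 0.05. COL16A1, COL11A1 and COL13A1 rest on 1 read each in the empty vector and COL14A1 on 2, so their colours are not measured folds. The columns of 42YS and Block9del hold the fewest dots, 7 and 8.

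COL1A1 and COL1A2 encode the chains of type I collagen, the main collagen of connective tissue, and they behaved differently. COL1A1 had 88.4 and 90.2 CPM in ARID1A WT and 25.2 and 29 CPM in ARID1B WT, against 0.816, 0.629, 1.18 and 0.390 CPM in the empty vector. Both wild-type groups lay far above every empty vector library, with log2 fold changes of 6.91 ± 0.159 and 5.19 ± 0.168 (± SE, edgeR quasi-likelihood test, adjusted p = 1.24e-17 and 3.76e-15). COL1A1 had 18.8 and 17.7 CPM in CBR, 14 and 14.1 CPM in delIDR1, 19.3 and 15.3 CPM in DBDmut, 18.4 and 17.8 CPM in the DDX4 hybrid, and 7.84 and 8.70 CPM in the libraries labelled AQGscram. These 5 groups lay between ARID1A WT and the empty vector and were called in both comparisons, with log2 fold changes over the empty vector of 3.48 to 4.62. In 42YS, with 0.764 and 0.948 CPM, the libraries overlapped the empty vector (log2 fold change 0.22 ± 0.288, adjusted p = 0.595 by the edgeR quasi-likelihood test). Among ARID1B mutants COL1A1 had 8.60 and 9.48 CPM in M2, 3.67 and 3.88 CPM in A457_G461del, 0.997 and 1.58 CPM in Block13del, and 1.08 and 1.00 CPM in Block9del. The first pair of mutants lay above every empty vector library, while Block13del and Block9del overlapped it. Block13del was called (0.83 ± 0.268), but not without its replicate 2 (0.43) or without empty vector replicate 2 (0.75), and Block9del was not called (0.50 ± 0.274).

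COL1A2 had the highest level per kb of exon in every group and changed less. It had 3721 and 3600 CPM in ARID1A WT and 3425 and 3515 CPM in ARID1B WT, against 3254, 2900, 2287 and 2404 CPM in the empty vector. The log2 fold change was 0.43 ± 0.095 in ARID1A WT, or 0.25 against its own pair, and 0.36 ± 0.095 in ARID1B WT, or 0.57 against its own pair. The ARID1B WT call was lost without its replicate 2 (adjusted p = 0.0538, edgeR quasi-likelihood test). COL1A2 fell in delIDR1, with 1990 and 1971 CPM (-0.45 ± 0.098), and in the libraries labelled AQGscram, with 2029 and 1926 CPM (-0.46 ± 0.098). CBR, with 2375 and 2334 CPM, was not called against all 4 empty vector libraries (-0.20 ± 0.097) and was lower than its own pair (-0.39). In DBDmut the value was 0.03 over 4 libraries and -0.15 against its own pair, and in the DDX4 hybrid -0.05 and 0.16, both called only against their own pair.

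Type I collagen holds more α1 than α2 chains, so the ratio of the chains' RNA was computed per kb of exon. COL1A2 exceeded COL1A1 per kb by 50.9 times in ARID1A WT (49.6 and 52.3 in its libraries) and by 160 times in ARID1B WT, against 5185 ± 2169 times in the empty vector (SD, n = 4, range 2413 to 7652). The ratio was 161 in CBR, 175 in delIDR1, 180 in the DDX4 hybrid, 200.4 in DBDmut and 298 in the libraries labelled AQGscram. It was 445 in M2, 801 in A457_G461del, 2354 in Block13del, 2864 in Block9del and 3528 in 42YS. The excess of COL1A2 RNA was therefore present in all 13 groups, and the ratios of Block13del, Block9del and 42YS overlapped the range of the empty vector, whose width follows from its few COL1A1 reads.

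**Figure D3:**
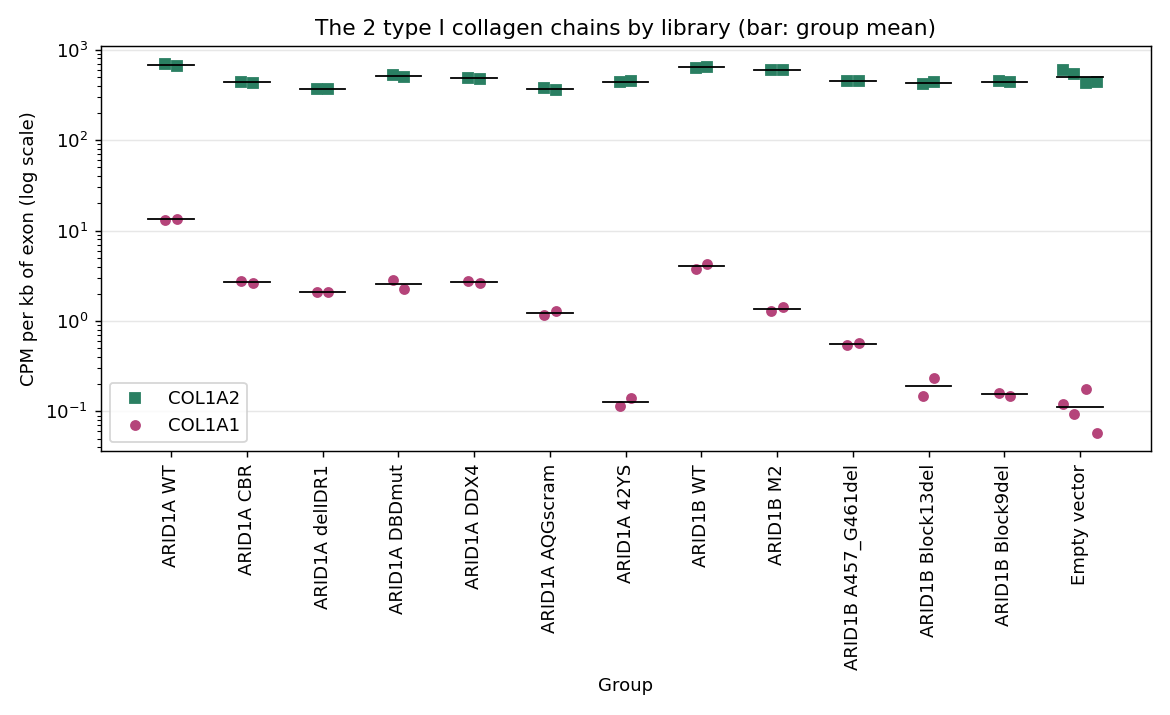
Points give CPM per kb of exon, on a log scale, of COL1A1 and COL1A2 in each library, with the groups on the x axis and bars at the group means. Group means of COL1A2 run between 365.1 CPM per kb in the libraries labelled AQGscram and 675.9 in ARID1A WT, with 500.5 in the empty vector. Those of COL1A1 run between 0.112 CPM per kb in the empty vector and 13.3 CPM per kb in ARID1A WT.

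COL3A1, the gene of type III collagen, which forms mixed fibrils with type I, rose with both wild-type proteins. It had 540 and 512 CPM in ARID1A WT, 530 and 531 CPM in ARID1B WT, and 562 and 554 CPM in DBDmut, against 124, 111, 191 and 197 CPM in the empty vector. The log2 fold changes were 1.76 ± 0.146, 1.77 ± 0.145 and 1.84 ± 0.145, and no library of these groups overlapped the empty vector. The lowest of the constructs was 42YS, with 247 and 246 CPM and a log2 fold change of 0.66 ± 0.148. The empty vector pairs differed by 0.73 on the log2 scale for this gene, so ARID1A WT was 2.16 above its own pair and ARID1B WT 1.45 above its own.

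Type V collagen sets the diameter of fibrils, and its chain genes COL5A1 and COL5A2 were called higher in most of the same constructs but by different amounts. COL5A1 had 103 and 96.3 CPM in ARID1A WT and 100.1 and 98.3 CPM in M2, against 19.5, 18.7, 24.6 and 27.8 CPM in the empty vector. Both log2 fold changes were 2.14 ± 0.115, and that of the DDX4 hybrid, at 42.9 and 40.5 CPM, was 0.89 ± 0.118. ARID1B WT, at 32.4 and 35.9 CPM, lay nearer to the empty vector (0.60 ± 0.122), as did CBR at 38.7 and 38.2 CPM and DBDmut at 31.6 and 30.9 CPM. Block9del, at 15.9 and 19.5 CPM, was called lower (-0.35 ± 0.128), but not without its replicate 1 (-0.21), without empty vector replicate 3 (-0.31) or without empty vector replicate 4 (-0.23). COL5A2 had 820 and 767 CPM in ARID1A WT and 820 and 822 CPM in the DDX4 hybrid, against 511, 467, 416 and 435 CPM in the empty vector. Its log2 fold changes were 0.80 ± 0.074 and 0.84 ± 0.074, with 0.60 ± 0.074 in ARID1B WT and 0.61 ± 0.074 in M2. Per kb, COL5A2 exceeded COL5A1 by 9.62 times in ARID1A WT and 8.49 times in M2, against 25.3 ± 6.57 times in the empty vector (SD, n = 4), and ARID1B WT, at 24.5 times, lay within the empty vector range of 18.8 to 31.6.

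COL27A1, a fibrillar collagen known from cartilage, was the fibrillar gene that was lower with wild-type ARID1B. It had 27.7 and 32.6 CPM in ARID1B WT, 28 and 29.1 CPM in M2, and 38.2 and 38.9 CPM in ARID1A WT, against 51.6, 51.5, 38.3 and 38.5 CPM in the empty vector. Both ARID1B groups lay below every empty vector library (-0.58 ± 0.125 and -0.66 ± 0.124), and ARID1A WT overlapped replicates 3 and 4 (-0.23 ± 0.122, not called). Against its own pair ARID1A WT was called lower (-0.42), as it was without empty vector replicate 3 or without replicate 4 (-0.29 each). The remaining fibrillar genes tested, COL11A1 and COL11A2, stayed under 1 CPM in all groups, and COL11A1, named here after its values were seen, had 34 reads in ARID1B WT against 1 in the empty vector, a ratio of 66.9 with a 95% counting interval of 11.2 to 2720. Of the 8 fibrillar genes tested, 7 were called higher in ARID1A WT, where 21.1% of all genes were higher and 23.5% lower, and 6 higher and 1 lower in ARID1B WT, where 19.2% and 23.9% were.

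Markers of fibroblasts, which make fibrillar collagen, moved with these genes in part. The summed level of 7 fibroblast markers was 61.3 to 62.4 CPM in ARID1A WT and 46.0 to 46.9 CPM in ARID1B WT, against 12.7 to 14 CPM in the empty vector, and nearly all of it came from PDGFRB and POSTN. DCN, LUM, FAP and THY1 were at or near 0, with no library above 0.088 CPM. The 6 endothelial markers summed to 0.653 CPM at most. The 6 leukocyte markers summed to 14.9 to 16.7 CPM in ARID1A WT against 1.72 to 2.88 CPM in the empty vector, almost entirely from CD68, while PTPRC never exceeded 0.0453 CPM. The 8 epithelial markers of the tissue summed to 91.6 to 92.6 CPM in ARID1A WT, 84.9 to 85.7 CPM in ARID1B WT and 120 to 125 CPM in M2, against 55.2 to 65.7 CPM in the empty vector. KRT18 and PAX2 gave most of the signal. KRT18 averaged 46.0 CPM in ARID1A WT, 47.0 CPM in ARID1B WT and 81.6 CPM in M2, against 11.7 CPM in the empty vector, while PAX2 averaged 36.3, 31.6 and 33.9 CPM in these constructs, against 44.9 CPM in the empty vector. KRT8 averaged 5.25 CPM in ARID1A WT against 0.514 CPM in the empty vector, and EPCAM and PAX8 did not exceed 0.809 and 0.234 CPM in any library. The part of these markers in the collagen results was not tested.

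Collagens on the fibril surface, the FACIT class, ranged widely in the size of their response. All 5 FACIT genes tested (COL9A2, COL9A3, COL12A1, COL14A1 and COL16A1) were called higher in ARID1A WT, where 21.1% of all genes were, and 4 of them in ARID1B WT, where 19.2% were. COL14A1 and COL16A1 rest on 2 reads and 1 read in the empty vector. COL12A1, which links fibrils in tissues under tension, had 34.5 and 32.7 CPM in ARID1A WT, 26.3 and 26.9 CPM in ARID1B WT, and 52.6 and 52.7 CPM in M2, against 0.227, 0.18, 0.131 and 0.112 CPM in the empty vector. Its log2 fold changes were 7.60 ± 0.163, 7.27 ± 0.166 and 8.25 ± 0.158, the highest level being that of an ARID1B mutant. DBDmut kept 4.61 and 3.97 CPM (4.63 ± 0.21) and A457_G461del 2.0 and 2.08 CPM (3.56 ± 0.237), both above every empty vector library. CBR had 0.044 and 0.186 CPM, the libraries labelled AQGscram 0.0906 and 0.199 CPM, and 42YS 0.127 and 0.165 CPM, and these groups overlapped the empty vector. In the DDX4 hybrid the 0.419 and 0.457 CPM were called higher (1.36 ± 0.327), but not with only its replicate 1 (1.30) or only its replicate 2 (1.42) in the fit. Against its own pair the hybrid was called higher (1.82), with 2 reads in each library of that pair.

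COL16A1, a FACIT collagen found near basement membranes and fibrils, was at 1 read in all 4 empty vector libraries together. It had 49.7 and 48.3 CPM in ARID1A WT, 27.9 and 27.7 CPM in ARID1B WT, and 8.41 and 9.53 CPM in M2. The 1879 reads of ARID1A WT against that 1 read give a ratio of 3790, with a 95% counting interval of 680 to 150000, and ARID1B WT gives 2150 (386 to 85100). CBR had 3.78 and 3.50 CPM, delIDR1 4.37 and 4.13 CPM, DBDmut 5.42 and 5.30 CPM, and A457_G461del 3.38 and 3.41 CPM. Those levels were far below the wild-type proteins' and above the empty vector, with ratios of 263 to 416. The lowest constructs were 42YS with 15 reads (ratio 24.3, interval 3.74 to 1020) and Block9del with 19 reads (30.2, interval 4.80 to 1250), both called higher. The intervals cover counting error only.

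**Figure D4:**
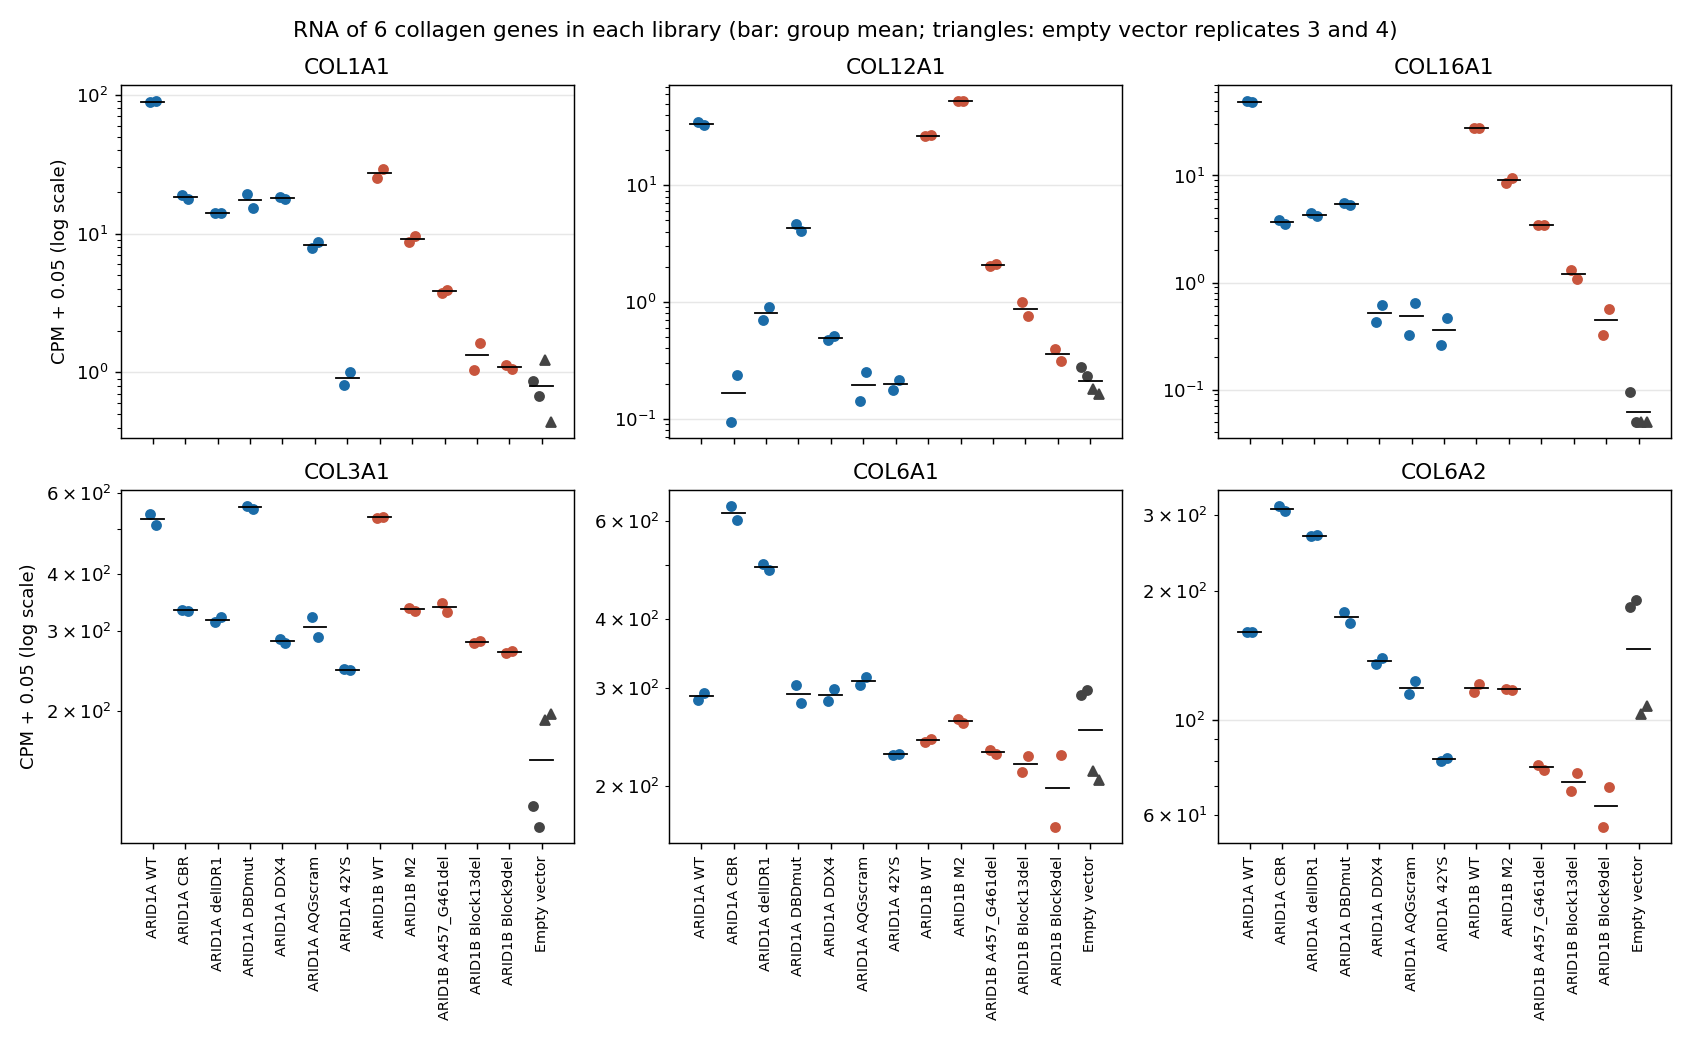
Points give CPM (plus 0.05, log scale) of 6 collagen genes in each library, with the 12 constructs and the empty vector on the x axis, bars at group means and triangles for empty vector replicates 3 and 4. For COL12A1 the M2 libraries stand at 52.6 and 52.7 CPM, while the empty vector libraries stay at 0.112 to 0.227 CPM.

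Type IX collagen coats cartilage fibrils, and its chain genes COL9A2 and COL9A3 differed in the size of their response. COL9A3 had 6.56 and 6.75 CPM in ARID1A WT, 5.11 and 5.21 CPM in delIDR1, and 3.08 and 3.54 CPM in ARID1B WT, against 0.952, 0.809, 1.70 and 1.34 CPM in the empty vector. No library of the 3 groups overlapped the empty vector, and the log2 fold changes were 2.51 ± 0.205, 2.14 ± 0.208 and 1.5 ± 0.221. COL9A2 had 11.2 and 10.3 CPM in ARID1A WT and 6.65 and 7.88 CPM in ARID1B WT, against 6.80, 5.84, 6.54 and 8.75 CPM in the empty vector. ARID1A WT was higher by 0.62 ± 0.156 and ARID1B WT overlapped the empty vector (0.06 ± 0.163). M2, at 4.86 and 5.08 CPM, was lower by the same test (-0.49 ± 0.168), but not without either of its libraries (-0.46 without replicate 1 and -0.52 without replicate 2) or without empty vector replicate 4 (-0.36). Against its own pair M2 was called lower (-0.64). COL14A1, a FACIT collagen of dense connective tissue, had 14 and 15 reads in ARID1B WT and 6 and 8 in ARID1A WT, against 2 in the 4 empty vector libraries together, for ratios of 28.5 (7.22 to 247) and 14.1 (3.24 to 128). The M2 libraries held 22 and 7 reads and differed from each other, so no ratio is given for M2.

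Of the network collagens of basement membranes, COL4A5 was the one with abundant RNA. COL4A5 and its head-to-head neighbour COL4A6 encode chains that assemble together in some basement membranes. COL4A5 had 170 and 159 CPM in ARID1A WT, 146 and 153 CPM in ARID1B WT, and 133 and 135 CPM in DBDmut, against 62, 55, 54.1 and 51.5 CPM in the empty vector. The groups did not overlap, and the log2 fold changes were 1.56 ± 0.072, 1.43 ± 0.073 and 1.27 ± 0.073. 42YS (59.1 and 57.9 CPM) and Block9del (60.1 and 54.1 CPM) overlapped the empty vector and were not called. The libraries labelled AQGscram, at 79.2 and 64.8 CPM, were called (0.37 ± 0.075), but not without replicate 1 (0.23). COL4A6 had 1.46 and 1.97 CPM in ARID1A WT and 1.92 and 1.27 CPM in ARID1B WT, against 0.816, 0.629, 0.327 and 0.335 CPM in the empty vector, and was called in both (1.65 ± 0.32 and 1.53 ± 0.324). Its highest level was in CBR, at 2.38 and 2.66 CPM (2.19 ± 0.299), where COL4A5 had only 80.3 and 81.1 CPM (0.53 ± 0.074). COL4A2 averaged 0.65 CPM in ARID1A WT, its highest group, and its head-to-head neighbour COL4A1 never passed 2 reads in a library.

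COL18A1, a basement membrane collagen whose end fragment is known as endostatin, had 217 and 215 CPM in ARID1A WT, 161 and 148 CPM in DBDmut, and 95.2 and 106 CPM in ARID1B WT, against 69.6, 72.4, 54.4 and 54.9 CPM in the empty vector. The log2 fold changes were 1.78 ± 0.103, 1.30 ± 0.103 and 0.68 ± 0.106, and none of these libraries overlapped the empty vector. It was lower than the empty vector in 42YS (40.9 and 44.3 CPM, -0.56 ± 0.112), Block13del (45.9 and 45.5 CPM, -0.46 ± 0.112) and Block9del (32.0 and 41.6 CPM, -0.78 ± 0.113), each of which belongs to set 3. The call in the DDX4 hybrid (0.30 ± 0.107) was lost when replicate 1 or 2 of the hybrid or replicate 3 or 4 of the empty vector was left out, at 0.38, 0.23, 0.24 and 0.24. Against its own pair the hybrid was called higher (0.51). The related COL15A1, which was chosen after its values were seen, had 2.58 and 2.43 CPM in empty vector replicates 1 and 2 but 0.0654 and 0 CPM in replicates 3 and 4. The DDX4 hybrid, at 0.114 and 0.0703 CPM, was called lower than the 4 libraries (-3.82 ± 1.12) but was not below its own pair (1.44, adjusted p = 0.37, edgeR quasi-likelihood test), and ARID1B WT, at 2.42 and 2.45 CPM, was not called over 4 libraries (0.84 ± 0.656) but was 6.10 above its own pair.

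COL7A1, the collagen of the anchoring fibrils that fasten epithelium to the tissue below, followed another order of constructs. It had 15.0 and 15.4 CPM in the libraries labelled AQGscram, 12.5 and 12.4 CPM in 42YS, and 10.8 and 11.7 CPM in A457_G461del, against 4.26, 4.90, 4.19 and 7.53 CPM in the empty vector. These 3 groups of set 3 lay above every empty vector library, with log2 fold changes of 1.54 ± 0.182, 1.26 ± 0.184 and 1.11 ± 0.186. So did Block13del of set 3, at 10.96 and 10.46 CPM (1.04), and the DDX4 hybrid of set 2, at 9.48 and 10.66 CPM (0.95), both called higher. Block9del of set 3, at 6.745 and 11.65 CPM, was called higher too (0.81) but overlapped the empty vector. ARID1A WT, at 8.20 CPM in both libraries, was called (0.65 ± 0.197), but not without replicate 1 or without replicate 2 of ARID1A WT (0.65 each). Against its own pair ARID1A WT was called higher (0.84). CBR, at 3.34 and 3.64 CPM, was called lower (-0.58 ± 0.219), but not without its replicate 1 (-0.53) or 2 (-0.66), without empty vector replicate 4 (-0.36), or against its own pair (-0.39).

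Type VI collagen, which links cells to the surrounding matrix, was called higher in both ARID1A truncations, and not with the wild-type proteins over 4 empty vector libraries. COL6A1 had 638 and 603 CPM in CBR and 502 and 489 CPM in delIDR1, and 285 and 294 CPM in ARID1A WT, against 291, 298, 212 and 205 CPM in the empty vector. COL6A2 had 314 and 306 CPM in CBR and 268 and 269 CPM in delIDR1, and 160 CPM in both ARID1A WT libraries, against 183, 190, 103 and 108 CPM in the empty vector. For both genes the truncations lay above every other library shown here, while ARID1A WT lay within the range of the empty vector. In CBR the log2 fold changes of COL6A1 and COL6A2 were 1.30 ± 0.121 and 1.09 ± 0.168 (edgeR quasi-likelihood test, adjusted p = 4.1e-08 and 2.36e-05), and against the own pair 1.07 and 0.73. In delIDR1 they were 0.98 ± 0.121 and 0.88 ± 0.169, and against the own pair 0.75 and 0.52. The empty vector pairs differed for these genes by -0.50 and -0.82, so that COL6A2 in ARID1A WT was 0.13 over 4 libraries and not called, but -0.22 and called lower against its own pair. In ARID1B WT, COL6A1 and COL6A2 were -0.06 and -0.30 over 4 libraries, and 0.21 and 0.17 above the own pair, called in the second comparison only. COL6A2 was called lower in 42YS (80.2 and 81.6 CPM), A457_G461del (78.3 and 76.6 CPM), Block13del (68.4 and 75.1 CPM) and Block9del (56.3 and 69.75 CPM). Block9del was called lower for COL6A1 too, at 168.5 and 227.3 CPM, which overlapped the empty vector. Each of these constructs belongs to set 3, so construct and set cannot be told apart. The third chain gene tested, COL6A3, did not exceed 0.944 CPM in any library, and that value was in empty vector replicate 2. Per kb, COL6A1 exceeded COL6A2 by 1.75 to 3.25 times over the 13 groups, with the 5 constructs of set 3 at 2.70 to 3.25.

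The transmembrane collagens COL13A1, COL17A1 and COL23A1, of which COL17A1 is a part of hemidesmosomes, were each called higher in ARID1A WT, but none reached 1 CPM as a group mean. COL17A1 was highest in M2 (0.726 and 1.07 CPM) and the DDX4 hybrid (0.876 and 0.844 CPM), against 0.0907, 0, 0.196 and 0 CPM in the empty vector. COL26A1, a short collagen with an EMI domain, was among the larger responses at higher levels. It had 109 and 99.9 CPM in DBDmut, 96.3 and 91.2 CPM in CBR, 89.0 and 86.9 CPM in delIDR1, 77.3 and 71.2 CPM in ARID1A WT, and 81.5 and 83.8 CPM in ARID1B WT, against 12.9, 12.7, 19.2 and 21.6 CPM in the empty vector. These 5 groups did not overlap the empty vector, and their log2 fold changes were 2.66 ± 0.134, 2.51 ± 0.135, 2.42 ± 0.135, 2.17 ± 0.136 and 2.33 ± 0.135. M2, at 18.5 and 17.9 CPM, lay within the range of the empty vector (0.14 ± 0.147). The 18 collagen genes that were not tested had at most 11 reads in a library (COL5A3), and COL8A1 had none; COL2A1, the fibrillar collagen of cartilage, reached 10 reads.

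The summed RNA of the 44 collagen genes was 6232 ± 154 CPM in ARID1A WT, 5556 ± 84.2 CPM in ARID1B WT, 5122 ± 20.5 CPM in M2 and 4994 ± 165 CPM in DBDmut (SD, n = 2 each), against 3941 ± 552 CPM in the empty vector (SD, n = 4, range 3414 to 4596). The lowest sum was 3592 ± 182 CPM, in the libraries labelled AQGscram. COL1A2 alone made up 48.9% of the sum in delIDR1, the lowest group mean, and 68.6% in the empty vector, the highest. Per kb the order in ARID1A WT was COL1A2 at 676 CPM per kb, COL5A2 at 112, COL3A1 at 94.9 and COL6A1 at 68.3. In the empty vector it was COL1A2 at 500.5 CPM per kb, COL5A2 at 64.6, COL6A1 at 59.3 and COL6A2 at 33.2, and the spread of COL6A1 (SD 11.8, n = 4) covered the gap to COL5A2.

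The mutants that share a set with their wild-type protein can be compared with it directly, which asks which collagen genes differ with the altered stretch. CBR against ARID1A WT had 2 of the 26 higher and 14 lower, where 22.2% of all genes were called higher and 25.3% lower, or 47.5%, and delIDR1 had 2 higher and 12 lower, where 17.4% and 22.7% were, or 40.2%. In both the genes that were higher were COL6A1 and COL6A2, by 1.10 ± 0.146 and 0.96 ± 0.202 in CBR and by 0.77 ± 0.145 and 0.75 ± 0.201 in delIDR1. The genes that were lower included 6 of the 8 fibrillar genes in each. COL12A1 was lower by -8.14 ± 0.222 in CBR and -5.47 ± 0.167 in delIDR1, and COL16A1 by -3.75 ± 0.171 and -3.52 ± 0.168. COL26A1 was not called against ARID1A WT in either (0.34 ± 0.154 in CBR and 0.25 ± 0.154 in delIDR1). DBDmut against ARID1A WT had 9 genes lower and 17 not called, where 4.62% of all genes were called lower and 0.999% higher, or 5.62%. COL16A1 was lower by -3.19 ± 0.164, COL12A1 by -2.97 ± 0.132, COL1A1 by -2.37 ± 0.143 and COL5A1 by -1.67 ± 0.14, while COL3A1 (0.09 ± 0.174) and COL26A1 (0.49 ± 0.154) were not called. With any 1 of the 4 libraries of DBDmut and ARID1A WT left out, fewer of the 26 were called. Over all genes fewer were called too.

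M2 against ARID1B WT had 2 of the 26 higher and 5 lower, where 8.31% of all genes were called higher and 6.01% lower, or 14.3%. COL5A1, at 100.1 and 98.3 CPM in M2 against 32.4 and 35.9 CPM in ARID1B WT, was higher by 1.54 ± 0.139 (edgeR quasi-likelihood test, adjusted p = 3.13e-07), and COL12A1 was higher by 0.98 ± 0.113. COL26A1, at 18.5 and 17.9 CPM in M2 against 81.5 and 83.8 CPM in ARID1B WT, was lower by -2.18 ± 0.166. COL16A1 (-1.63 ± 0.154), COL1A1 (-1.59 ± 0.149), COL3A1 (-0.67 ± 0.175) and COL11A1 (-2.19 ± 0.498) were lower too. The deletion thus came with fibrillar and FACIT genes on both sides of the wild type. In a fit of only these 4 libraries 17 of the 26 were called, and 13 with a replicate block. The share of all genes called in those fits is not given here, so neither count can be set against the 14.3%.

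The other mutants belong to another set than their wild-type protein, so that construct and set cannot be told apart in a direct comparison. Against ARID1A WT, the DDX4 hybrid had 14 of the 26 lower, where 19.6% of all genes were called lower and 16.8% higher, or 36.5%. The libraries labelled AQGscram had 1 higher and 17 lower, where 19.8% and 21.5% were, or 41.3%, and 42YS 2 higher and 21 lower, where 24.5% and 25.3% were, or 49.8%. Against ARID1B WT, A457_G461del had 1 higher and 13 lower, where 14.6% and 15.1% of all genes were, or 29.6%. Block13del had 2 higher and 17 lower, where 21.4% and 22% were, or 43.4%, and Block9del 1 higher and 17 lower, where 22.7% and 24.4% were, or 47.1%. For A457_G461del fewer of the 26 were called without ARID1B WT replicate 1 or without A457_G461del replicate 2, and fewer of all genes too. COL1A1 was lower than in the wild type by -6.69 ± 0.201 in 42YS, -4.69 ± 0.198 in Block9del and -4.36 ± 0.195 in Block13del, which left all 3 near the empty vector. COL7A1 was higher in the libraries labelled AQGscram than in ARID1A WT (0.89 ± 0.212), and in 42YS (0.61 ± 0.213), A457_G461del (0.78 ± 0.218) and Block13del (0.71 ± 0.22) than in their wild types.

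For the DDX4 hybrid each construct's difference from its own empty vector pair can be compared. This removes the set only if it shifts construct and empty vector libraries alike, which was not tested. The hybrid's response was then below that of ARID1A WT for 9 of the 26 and above it for 5, where 25.2% of all genes were below and 25.3% above, or 50.5%. The 53.8% of the 26 that were called was close to that share. COL12A1 was below by -5.51, COL9A3 by -2.93, COL1A1 by -2.36, COL26A1 by -2.0, COL5A1 by -1.72 and COL3A1 by -1.61 on the log2 scale. COL6A2 (0.60), COL27A1 (0.56), COL6A1 (0.51) and COL5A2 (0.25) were above it, as was COL6A3 at its low level. The same difference set the wild-type proteins beside each other.

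**Figure D5:**
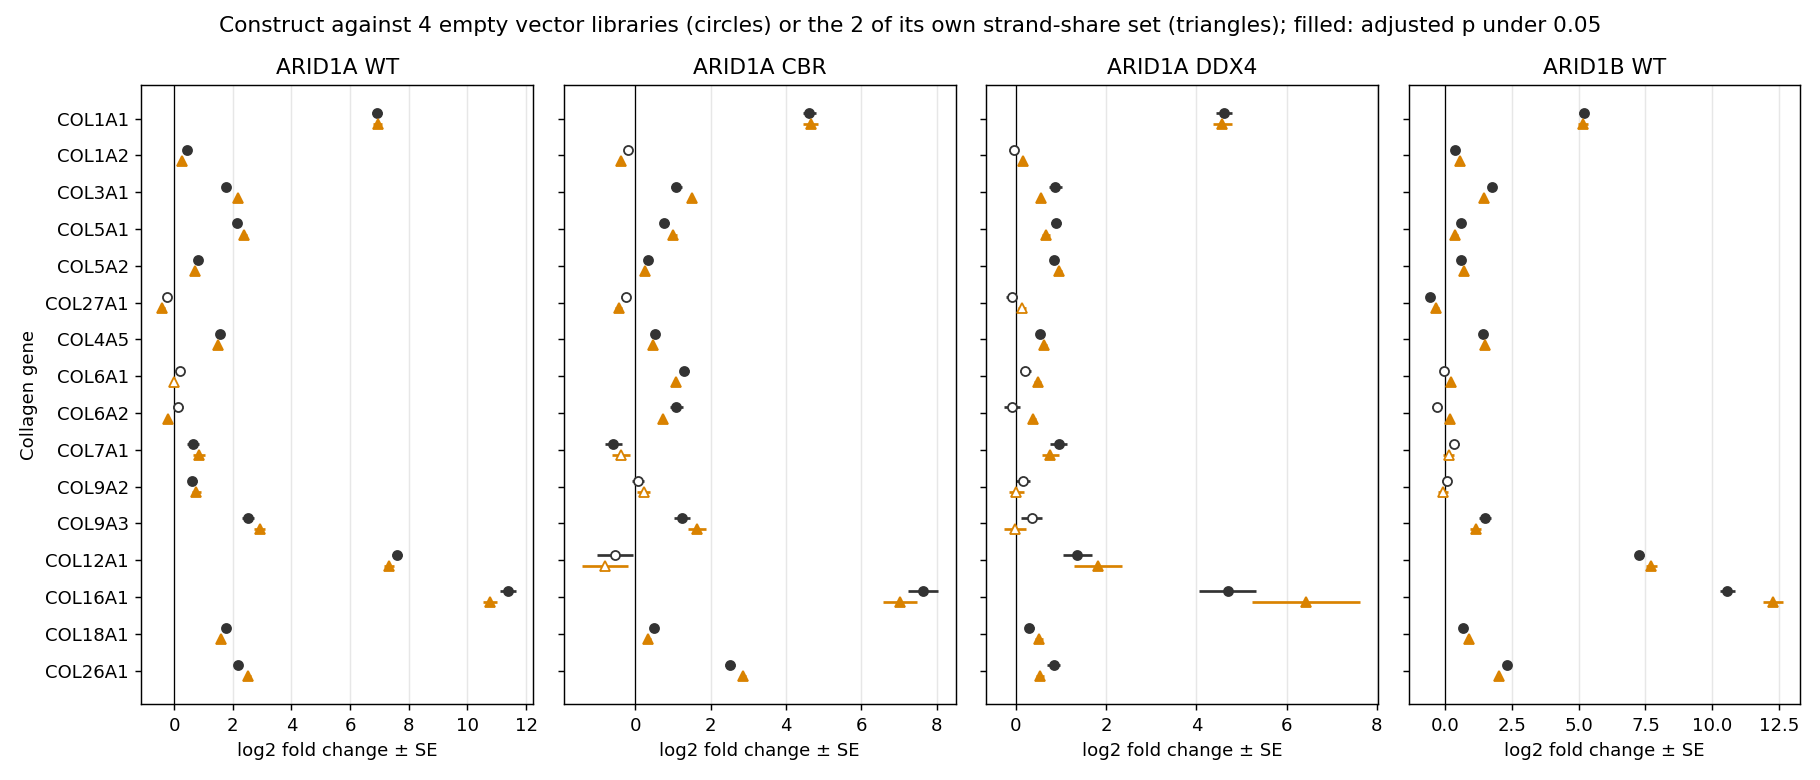
Each panel plots the log2 fold change ± SE of the 16 collagen genes described by library for 1 of 4 constructs (ARID1A WT, CBR, the DDX4 hybrid and ARID1B WT), with an x axis of its own, against all 4 empty vector libraries (circles) and against the pair of its own set (triangles), filled where the adjusted p is under 0.05. For COL6A1 and COL6A2 the circles and triangles of ARID1A WT lie on either side of or at 0, at 0.20 and -0.02 and at 0.13 and -0.22. COL16A1 rests on 1 or 0 reads in the empty vector pairs.

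ARID1A WT and ARID1B WT, which belong to different sets, differed for 6 of the 26 in the direct comparison, each of them higher in ARID1A WT, where 8.96% of all genes were called higher and 4.56% lower, or 13.5%. They were COL1A1 (1.72 ± 0.139), COL5A1 (1.54 ± 0.139), COL18A1 (1.10 ± 0.124), COL9A3 (1.00 ± 0.223), COL16A1 (0.82 ± 0.145) and COL9A2 (0.56 ± 0.183). As differences of own-pair responses, 8 were above and 4 below, where 22.9% and 18.7% of all genes were, or 41.6%. The 46.2% of the 26 that were called was close to that share. COL5A1 (2.0), COL1A1 (1.78), COL9A3 (1.77), COL9A2 (0.84), COL18A1 (0.72), COL3A1 (0.71) and COL26A1 (0.52) responded more to ARID1A WT, and COL6A2 (-0.39) and COL1A2 (-0.31) less. The others called were COL23A1 above, and COL6A3 and COL15A1 below, whose empty vector levels rest on few reads in at least one pair. COL16A1 was no longer called in that comparison, in which ARID1B WT is set against a pair with no COL16A1 read. COL12A1 was not called by either measure (0.33 ± 0.114 directly and -0.40 between responses).

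Genes that modify, export, trim, crosslink, bind or degrade collagen were taken from 6 lists of 58 genes, 46 of them tested. In ARID1A WT 20 were called higher and 9 lower, and in ARID1B WT 16 higher and 6 lower, a count that fell to 14 in all without ARID1B WT replicate 1 and to 15 without its replicate 2. All genes called made up 44.5% and 43.1% in these comparisons. Of 17 hydroxylases and chaperones 7 were higher and 4 lower in ARID1A WT, where 21.1% and 23.5% of all genes were. PLOD2, the lysyl hydroxylase that prepares collagen ends for crosslinks, had 262 and 265 CPM in ARID1A WT and 200.2 and 197 CPM in ARID1B WT, against 45.3, 45.1, 54.2 and 53.9 CPM in the empty vector. Both groups lay well above it, by 2.41 ± 0.066 and 2.0 ± 0.066 on the log2 scale. P4HA3, a prolyl hydroxylase subunit, was higher by 4.84 ± 0.279 and 2.75 ± 0.341, whereas the collagen chaperone SERPINH1, named here after its values were seen, was not called in either (-0.21 ± 0.082 and -0.11 ± 0.082).

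Of 7 propeptide processing genes tested, 4 were called higher in ARID1A WT and none lower, where 21.1% of all genes were higher and 44.5% called in all. ADAMTS3 and BMP1, which cut the ends off procollagen, were higher by 1.54 ± 0.078 and 0.86 ± 0.08 in ARID1A WT and by 0.90 ± 0.08 and 0.62 ± 0.081 in ARID1B WT. PCOLCE, which speeds up BMP1, was higher by 0.73 ± 0.117 and 0.65 ± 0.118. Among crosslinking enzymes LOXL2 had 233 and 236 CPM in ARID1A WT and 141 and 149 CPM in ARID1B WT, against 18.1, 16.4, 13.2 and 14.4 CPM in the empty vector (3.91 ± 0.08 and 3.21 ± 0.08). LOXL4 had no read in the 4 empty vector libraries, and was at least 37.0-fold higher in ARID1A WT and at least 7.87-fold higher in ARID1B WT, against a floor of 3 reads over the empty vector group. LOXL3 was called lower in ARID1B WT (-1.18 ± 0.304), but not against its own pair (-0.58). Of 8 export genes, 1 was called higher and 3 lower in ARID1A WT, where 44.5% of all genes were called. CREB3L1, a transcription factor of the secretory pathway, was lower by -0.66 ± 0.089 in ARID1A WT and -0.56 ± 0.088 in ARID1B WT. MIA3 was lower in ARID1A WT, at 119.0 and 119.2 CPM against 138.5, 145.5, 162.3 and 163.2 CPM in the empty vector. SEC23A, a coat protein of export carriers, was higher by 0.30 ± 0.06 in ARID1A WT and 0.18 ± 0.061 in ARID1B WT. In ARID1B WT it was not called against its own pair (0.13).

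Of 8 collagen receptors, 5 were higher and 1 lower in ARID1A WT, where 21.1% of all genes were higher and 23.5% lower. In ARID1B WT 1 of the 8 was higher and none lower, where 19.2% and 23.9% of all genes were. ITGA2, a collagen-binding integrin chain, was higher in both (1.47 ± 0.15 and 0.71 ± 0.159), ITGA11 in ARID1A WT (2.81 ± 0.383), and the receptor kinase DDR2 was lower in ARID1A WT (-0.41 ± 0.097). MMP2, a gelatinase that degrades unwound collagen, had 88.8 and 86.1 CPM in ARID1A WT and 224.3 and 229.9 CPM in ARID1B WT, against 0.0907, 0.18, 0.131 and 0.0557 CPM in the empty vector. Its log2 fold changes of 9.49 ± 0.185 and 10.87 ± 0.177 compare with 7.60 and 7.27 for COL12A1. MMP14, a membrane-bound collagenase with under 1.3 CPM in these libraries, was lower in ARID1A WT (-0.95 ± 0.347) and not called in ARID1B WT (-0.59 ± 0.327).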

How the data were processed

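RNA of AN3CA cells was sequenced with an NEB mRNA kit, per the labels' protocols. The authors deposited raw read counts per gene and strand for each of 28 libraries. The submitters' processing notes name bcl2fastq, STAR 2.5.2b, Bowtie2 2.29 and hg19; the gene annotation is not given in the sources used here. The opposite-strand counts were used, and rows that name no gene (21.6 to 36.28% of counts) were left out. One model of all 13 groups was fitted with edgeR 4.0.16 (TMM scaling, quasi-likelihood test, R 4.3.3) to the 14220 genes that passed filterByExpr, with Benjamini-Hochberg adjustment over all of them and a threshold of 0.05. The SE of a fold change was derived from its F statistic. Per-kb levels used the exon union of GENCODE basic genes. The pipeline was tested on simulated counts. Genes described by library had to be tested, called in at least 1 comparison with the empty vector and average at least 5 CPM in a group; others named were chosen after their values were seen. The collagen genes and lists were chosen with earlier results of these data known. Alternatives were other scaling, filters, DESeq2 1.42.0, strand-ignored counts, a replicate block, a fit of only the groups compared, single empty vector pairs and leaving out each library.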

Additional observations from a re-analysis of the deposited data

Results flagged for a closer look

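Among the empty vector libraries, COL16A1 was detected in 1 of 4, at 0.0453 CPM. The value is 1 read. With the other 3 libraries at 0, any single read meets Dixon's criterion, so this says nothing about that library. In all 16 genes were looked at in this group, of which chance sets apart about 1 in 20.

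Responses against each construct's own empty vector pair were compared between ARID1A WT and ARID1B WT by a test of the difference itself. It called 12 of the 26 collagen genes, or 46.2%, close to the 41.6% of all genes called. COL5A1 responded more to ARID1A WT by 2.0 on the log2 scale, COL1A1 by 1.78, COL9A3 by 1.77, COL9A2 by 0.84, COL18A1 by 0.72, COL3A1 by 0.71 and COL26A1 by 0.52. COL6A2 differed by -0.39 and COL1A2 by -0.31.

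The same test between the DDX4 hybrid and ARID1A WT called 14 of the 26 collagen genes, or 53.8%, close to the 50.5% of all genes called. The hybrid's response was smaller for COL12A1 (-5.51), COL9A3 (-2.93), COL1A1 (-2.36), COL26A1 (-2.0), COL5A1 (-1.72), COL3A1 (-1.61), COL18A1 (-1.10), COL4A5 (-0.87) and COL9A2 (-0.75). It was larger for COL6A2 (0.60), COL27A1 (0.56), COL6A1 (0.51) and COL5A2 (0.25).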

How the results depend on the processing

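Other scaling (RLE), no filter on low counts, DESeq2 and strand-ignored counts left every count of collagen or pathway genes called within 1.5 times. Requiring an average log2 CPM of 1 left 13 collagen genes called in ARID1A WT against the empty vector, where 22 were reported, since fewer were tested. A fit of only the groups compared, which has few residual degrees of freedom, called 14 in ARID1A WT (22 reported), 11 in delIDR1 (19), 5 in the DDX4 hybrid (15), 1 in 42YS (7), 11 in ARID1B WT (17), 11 in M2 (18), 6 in A457_G461del (14) and 2 in Block13del (12). It called 0 in the libraries labelled AQGscram (14 reported, 11 at an unadjusted p under 0.05, 14 with DESeq2) and 0 in Block9del (8 reported, 4 at an unadjusted p under 0.05, 10 with DESeq2). It called 17 between M2 and ARID1B WT (7) and 17 between ARID1A WT and ARID1B WT (6). Counts over all genes moved by over 1.5 times in 18 comparisons under this fit and by less in 5. The collagen counts of this fit are therefore not set against the shares of the main fit. Same-numbered libraries did not deviate together (correlation -0.132 to 0.119 over 66 pairs of groups), so the numbers do not pair them. A replicate block gave 11 in 42YS, 13 for M2 against ARID1B WT and 13 for ARID1A WT against ARID1B WT. With the block, counts over all genes moved by over 1.5 times in 12 comparisons and by less in 11. Either empty vector pair alone gave 11 in 42YS, and the difference of own-pair responses gave 12 between the wild types.

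For the pathway lists the fit of only the groups compared gave 14 in ARID1A WT (29 reported), 9 in CBR (27), 9 in delIDR1 (29), 9 in DBDmut (25), 10 in the DDX4 hybrid (27), 8 in 42YS (22), 8 in ARID1B WT (22), 12 in M2 (22), 9 in A457_G461del (23), 7 in Block13del (19) and 7 in Block9del (20). In the libraries labelled AQGscram it gave 0 (19 reported, 13 at an unadjusted p under 0.05, 21 with DESeq2). The counts reported go with the shares of all genes given above for each construct. Counts of the fit of only the groups compared are not set against those shares. Empty vector replicates 1 and 2 alone gave 29 in Block13del and 32 in Block9del, of 46 tested. With that pair 63.5% and 63.8% of all genes were called. The block, which rests on the same control libraries, gave the same counts of pathway genes. Leaving out 1 library gave 17 to 28 in CBR (fewest without its replicate 2), 19 to 33 in delIDR1 (without its replicate 1), 16 to 26 in DBDmut (without its replicate 2), 14 to 23 in 42YS (without either of its libraries) and 14 to 23 in ARID1B WT (without its replicate 1). For collagen genes it moved the count of Block9del either way. It lowered the counts of DBDmut against ARID1A WT and of A457_G461del against ARID1B WT in every case. Counts over all genes did the same in these comparisons.

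Directions turned for small differences with empty vector replicates 1 and 2 alone: COL6A2 in ARID1A WT (-0.22), COL1A2 in DBDmut (-0.15) and COL6A1 in M2 (-0.17). The directions of COL6A2 in ARID1A WT and COL1A2 in DBDmut also turned under the block, which rests on the same control libraries. With replicates 3 and 4 alone they turned for COL1A2 (0.16) and COL6A2 (0.38) in the DDX4 hybrid, COL6A2 in the libraries labelled AQGscram (0.17), COL6A1 (0.21) and COL6A2 (0.17) in ARID1B WT, and COL6A2 in M2 (0.16). The cause was not tested beyond the difference between the empty vector pairs. Of the alternatives for single genes, 2620 kept direction and call, 127 gained a call, 113 lost it and 11 turned. The block is counted there beside empty vector replicates 1 and 2 alone, although both rest on the same control libraries. Counts over all genes moved by over 1.5 times under 66 alternatives, 28 of them with 1 library left out, and by less under 237.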
